A study of Mus musculus with 18 samples.

Results

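The 10 genes described here encode the proteins of the creatine cycle and of the calcium cycle, which are routes of heat production in fat that do not use UCP1. They are *Gatm*, *Gamt*, *Slc6a8*, *Ckb*, *Ckmt1*, *Ckmt2*, *Alpl*, *Atp2a1*, *Atp2a2* and *Ryr2*, chosen by name, and all 10 were found by symbol among the 55487 genes of the count tables. RNA was sequenced from 2 depots. The subcutaneous white fat (sWAT) came from mice aged 12 weeks, 4 of them Ctrl and 4 Csn8AKO, and the brown adipose tissue (BAT) from mice aged 4 weeks, 5 of them Ctrl and 5 Csn8AKO. All 18 mice were male and fasted, and each gave 1 library. The Csn8AKO mice are Csn8 f/f mice that also carry Cre recombinase under the adiponectin promoter, so that the deletion of *Csn8*, a subunit of the COP9 signalosome, is limited to adipocytes. Ctrl mice are Csn8 f/f littermates without Cre, labelled WT, and they carry the floxed allele as the Csn8AKO mice do. Other cells of the tissue keep the gene.

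In the creatine cycle, creatine is made from arginine and glycine by GATM and GAMT or taken up through SLC6A8. Creatine kinases add a phosphate from ATP, and a phosphatase, for which tissue-nonspecific alkaline phosphatase (ALPL) has been put forward, removes it again, so that ATP is spent without work being done. In the calcium cycle, SERCA pumps use ATP to bring calcium into the endoplasmic reticulum and ryanodine or IP3 receptors let it out. Both are known from beige and brown fat. Creatine kinases, SERCA pumps and ryanodine receptors are also abundant in muscle, where they serve contraction.

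The libraries held 15835721 to 23109603 counted reads in sWAT and 26658593 to 66719937 in BAT. The share of reads on ribosomal RNA genes was 31.8 and 47.8% in sWAT Csn8AKO replicates 3 and 4. It was 1.80 to 19.7% in the other sWAT libraries. Replicate 3 of sWAT Csn8AKO was the highest of its group for *Gatm*, *Ckb* and *Slc6a8*, and the part of the ribosomal share in this was not tested. Levels are given as CPM, which are counts scaled to a common library size, after TMM scaling over all 18 libraries. Where genes are compared with each other they are given as RPKM, which is CPM per kilobase of counted gene length. The summed level of 10 adipocyte markers was 11568 to 17590 CPM in sWAT Ctrl and 4750 to 11378 CPM in sWAT Csn8AKO, groups that did not overlap. All 10 markers had a lower value in sWAT Csn8AKO, 4 of them called, with a median log2 fold change of -0.81 against 0.03 over all genes, and the part of this in the other sWAT genotype values was not tested. In BAT the sum was 14996 to 17972 CPM in Ctrl and 14645 to 18246 CPM in Csn8AKO, groups that overlapped. Of the 10 markers, 5 had a higher and 5 a lower value in Csn8AKO BAT. Of them 0 were called higher and 3 lower, where 16.0% and 15.8% of all genes were. The summed level of 10 lymphocyte markers stood apart in sWAT Ctrl replicate 1 (265 CPM) and sWAT Csn8AKO replicate 2 (514 CPM), against 8.94 to 29.1 CPM in the other sWAT libraries. *Cops8*, the symbol of *Csn8*, was counted over the whole gene, including exons that are not deleted. It ranged from 31.1 to 34.9 CPM in sWAT Ctrl and from 25.7 to 33.6 CPM in sWAT Csn8AKO, and these groups overlapped. In BAT it ranged from 38.5 to 47.1 CPM in Ctrl and from 29.2 to 38.4 CPM in Csn8AKO, a log2 fold change of -0.30 (SE 0.09, adjusted p = 0.0211).

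Libraries differed in their content of skeletal muscle transcripts, which bears on *Atp2a1*, *Ckmt2* and the muscle isoforms related to the members. The summed level of 18 skeletal muscle markers ran from 234 to 3491 CPM in sWAT Ctrl and from 69.1 to 2092 CPM in sWAT Csn8AKO. It was 40.1 to 49.7 CPM in BAT Ctrl, most of it from *Myl1*, and 21.9 to 312 CPM in BAT Csn8AKO. The highest library of each sWAT genotype, Ctrl replicate 3 and Csn8AKO replicate 4, and the Csn8AKO BAT replicates 1 and 5 are called muscle-rich below, a choice made after the data were seen. *Acta1*, skeletal muscle actin, was at 570 and 384 CPM in the sWAT pair and at 28.0 and 54.6 CPM in the BAT pair, against 0.243 to 0.900 CPM in the other 8 BAT libraries.

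Of the 9 members with enough reads to test, 2 rose and 0 fell in Csn8AKO BAT at an adjusted p under 0.05 (edgeR's quasi-likelihood test, Benjamini-Hochberg adjustment over all genes tested). Of all 22345 genes tested in BAT, 16.0% were called higher and 15.8% lower, so that 2 of 9 members called higher is a share near the background. With an unadjusted p under 0.05 there were 3 higher and 0 lower members in BAT, beside 4702 and 4619 of all 22345 genes. DESeq2 called 3 members higher and 0 lower, beside 4038 and 3929 of all 22345 genes. In sWAT, 0 of 9 were called higher, where 2.30% of 18843 genes were, and 0 were called lower, where 3.00% were. With an unadjusted p under 0.05 there were 2 higher and 1 lower in sWAT, beside 1862 and 1976 of all 18843 genes. DESeq2 called 1 member higher and 0 lower there, beside 912 and 1034 of all 18843 genes. Between depots in Ctrl mice, 5 members were higher and 4 were lower in BAT than in sWAT, with 25.9% and 25.7% of 22509 genes called in these directions. The genotype effect differed between the depots for 0 members. At an unadjusted p under 0.05 there were 3 with a higher and 0 with a lower effect in BAT, beside 1948 and 1491 of all 22509 genes. Of all genes, 1.61% were called with a higher and 0.755% with a lower effect in BAT. DESeq2 called 1 member, beside 737 genes with a higher and 355 with a lower effect of all 22509. The depots came from mice of different ages, so that depot and age cannot be told apart in any comparison between them. In bulk tissue, fewer cells of a type and less RNA per cell cannot be told apart either.

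**Figure D1:**
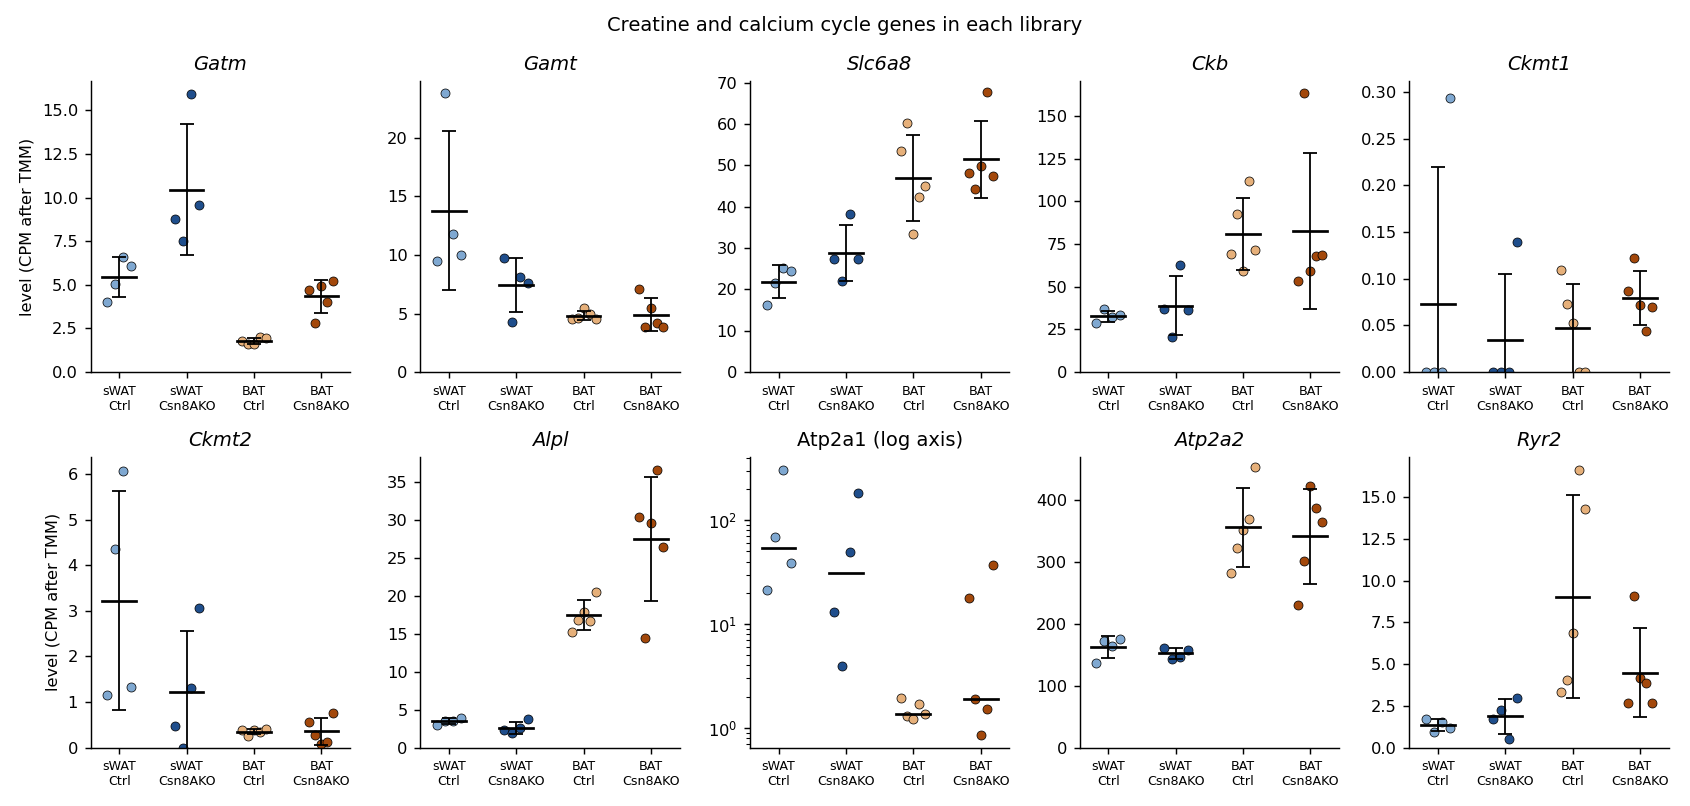
Level of each of the 10 genes in each library (CPM after TMM scaling; 4 libraries per sWAT group and 5 per BAT group); lines are means with SD bars, cut off at 0, except for *Atp2a1*, which has a log axis and lines at medians. *Gatm* does not overlap between genotypes in either depot, and single libraries stand far above their group for *Atp2a1* and *Ckb*.

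*Gatm*, which encodes the arginine:glycine amidinotransferase that catalyses the first and rate-limiting step of creatine synthesis, was the member with the clearest difference by genotype. In BAT it was at 1.77, 1.62, 1.60, 1.99 and 1.96 CPM in the Ctrl mice and at 4.71, 2.82, 4.91, 4.02 and 5.24 CPM in the Csn8AKO mice. Every Csn8AKO library was above every Ctrl library. The log2 fold change was 1.31 (SE 0.18, adjusted p = 9.93e-05), a level 2.47-fold higher. These levels rest on 65 to 103 reads in Ctrl and 69 to 277 reads in Csn8AKO. The gene was called under all 10 fits that each left out 1 BAT library, with log2 fold changes from 1.24 to 1.42, and without the muscle-rich libraries (1.15, adjusted p = 0.00165).

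In sWAT, *Gatm* was at 4.02, 5.03, 6.62 and 6.06 CPM in Ctrl and at 8.80, 7.52, 16.0 and 9.55 CPM in Csn8AKO, and again the groups did not overlap. The log2 fold change was 0.96 (SE 0.26), which missed the threshold with an adjusted p of 0.0613. It passed under 4 of 10 other settings. These were DESeq2 (0.97, adjusted p = 0.00978), limma voom (1.04, adjusted p = 0.0195), all 4 groups in one fit (0.95, adjusted p = 0.0126) and the muscle covariate (1.10, adjusted p = 0.0435). It did not pass with the replicate block (0.93, adjusted p = 0.0903) or without the muscle-rich libraries (1.10, adjusted p = 0.132). The adjusted p over all alternatives ran from 0.00978 to 0.459. Of the 8 fits that each left out 1 sWAT library, 1 gave a call. That was the fit without Csn8AKO replicate 2, the library with most lymphocyte marker RNA, where the value was 1.07 (adjusted p = 0.0326). The difference between the depots in the effect of genotype was 0.33 (SE 0.31, adjusted p = 0.681). In Ctrl mice *Gatm* was lower in BAT than in sWAT (log2 fold change -1.68, SE 0.22, adjusted p = 3.34e-06). Markers of other cells moved with genotype in the same libraries. The summed level of 10 macrophage markers was 90.4 to 128 CPM in BAT Ctrl and 299 to 400 CPM in BAT Csn8AKO, and 812 to 1143 CPM against 1186 to 2287 CPM in sWAT. The summed level of 9 fibroblast markers was 1386 to 2336 CPM in BAT Ctrl and 3487 to 6125 CPM in BAT Csn8AKO. None of these 19 markers was at 0 in a BAT library, and their part in the *Gatm* difference was not tested.

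*Gamt*, which methylates the GATM product to creatine, did not follow *Gatm*. In BAT it was at 4.53, 4.64, 5.47, 4.95 and 4.51 CPM in Ctrl and at 7.12, 3.88, 5.45, 4.15 and 3.85 CPM in Csn8AKO, with a log2 fold change of 0.05 (SE 0.18, adjusted p = 0.848). In sWAT it was at 9.52, 23.8, 11.8 and 9.98 CPM in Ctrl and at 9.72, 4.26, 8.15 and 7.60 CPM in Csn8AKO, so that the groups overlapped in 1 library. The log2 fold change in sWAT was -0.87 (SE 0.32, adjusted p = 0.161), and -0.50 (adjusted p = 0.413) without Ctrl replicate 2, the library at 23.8 CPM. In Ctrl mice the level in BAT was lower than in sWAT (log2 fold change -1.59, SE 0.27, adjusted p = 4.64e-05). The 2 enzymes of creatine synthesis were thus both lower in BAT than in sWAT.

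*Slc6a8*, the creatine transporter of the plasma membrane, was higher in BAT. It was at 16.3, 21.6, 25.2 and 24.4 CPM in sWAT Ctrl and at 53.5, 60.3, 33.3, 42.4 and 44.9 CPM in BAT Ctrl, groups that did not overlap (log2 fold change 1.02, SE 0.18, adjusted p = 1.11e-04). By genotype it was at 27.4, 22.0, 38.3 and 27.3 CPM in sWAT Csn8AKO, a log2 fold change of 0.41 (SE 0.18, adjusted p = 0.241). In BAT Csn8AKO it was at 48.0, 44.3, 49.9, 67.8 and 47.4 CPM (0.16, SE 0.15, adjusted p = 0.460). Creatine synthesis and uptake genes thus had opposite orders between the whole tissues, with *Gatm* and *Gamt* higher in sWAT and *Slc6a8* higher in BAT. In the same Ctrl libraries 10 of 10 macrophage, 9 of 9 fibroblast and 13 of 16 tested skeletal muscle markers were called lower in BAT. Of 10 adipocyte markers, 4 were called higher and 3 lower. The part of these differences in cell content was not tested.

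**Figure D2:**
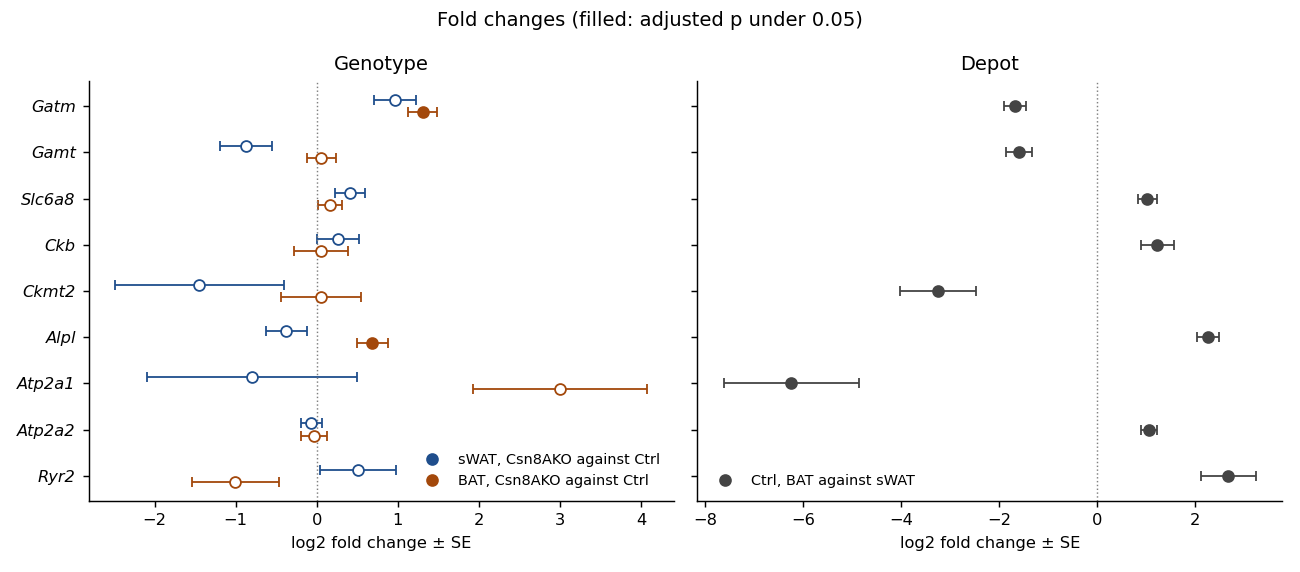
Log2 fold changes with SE of the 9 tested members, by genotype in sWAT and BAT (left) and by depot in Ctrl mice (right); filled points have an adjusted p under 0.05. By genotype only *Gatm* and *Alpl* in BAT are filled, whereas all 9 are filled by depot, 5 higher and 4 lower in BAT.

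Among the creatine kinases, *Ckb*, the cytosolic brain-type enzyme known from thermogenic fat, was nearly the whole of the family in BAT Ctrl. Its share of the summed RPKM of *Ckb*, *Ckm*, *Ckmt1* and *Ckmt2* was 98.6 to 99.4% there. In BAT Csn8AKO it was 99.3 to 99.6% in 3 libraries and 84.5 and 81.9% in the muscle-rich replicates 1 and 5, where *Ckm* took 13.6 and 16.3%. In sWAT Ctrl this share ran from 11.2 to 71.8%, with the muscle-type *Ckm* at 22.6 to 84.6%. *Ckb* was at 28.7, 36.7, 31.9 and 33.5 CPM in sWAT Ctrl and at 69.2, 92.4, 59.4, 112 and 71.4 CPM in BAT Ctrl (log2 fold change 1.23, SE 0.34, adjusted p = 0.00575). The groups did not overlap. With the muscle marker sum as a covariate the value was 1.11 with an adjusted p of 0.0969. It was 1.22 (adjusted p = 0.0209) without the muscle-rich libraries. Genotype gave no call for *Ckb*. In BAT Csn8AKO it was at 53.2, 163, 59.3, 67.7 and 68.7 CPM (0.05, SE 0.33, adjusted p = 0.921), with replicate 2 above every other library of the series. The value was -0.36 (adjusted p = 0.137) without that library. In sWAT Csn8AKO it was at 36.7, 20.3, 62.4 and 36.2 CPM (0.26, SE 0.26, adjusted p = 0.641).

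The mitochondrial creatine kinases were low in both depots. *Ckmt1*, the ubiquitous form, had 0 to 6 reads per library and was not tested, and a count of 0 allows up to 3 reads. *Ckmt2*, the sarcomeric form, was at 1.16, 4.35, 6.07 and 1.32 CPM in sWAT Ctrl and at 0.484, 0, 1.30 and 3.07 CPM in sWAT Csn8AKO. In BAT it was at 0.255 to 0.400 CPM in Ctrl and at 0.0722 to 0.764 CPM in Csn8AKO, from 2 to 32 reads per library. Neither genotype comparison was called (-1.45, SE 1.04, adjusted p = 0.505 in sWAT, and 0.06, SE 0.49, adjusted p = 0.945 in BAT). Without the muscle-rich libraries the BAT value was -1.16 (adjusted p = 0.111). *Ckmt2* was lower in BAT than in sWAT of Ctrl mice (log2 fold change -3.25, SE 0.78, adjusted p = 0.00196). Without the muscle-rich libraries the value was -2.75 (adjusted p = 0.00338). With the muscle marker sum as a covariate it was -0.03 (adjusted p = 0.985). In Ctrl that sum did not overlap between depots (40.1 to 49.7 CPM in BAT, 234 to 3491 CPM in sWAT). The sWAT Ctrl libraries kept in the fit without the muscle-rich ones had sums of 234, 767 and 450 CPM, still above all of BAT Ctrl. Neither fit therefore tells depot and muscle RNA apart in Ctrl. *Ckmt2* was highest in the libraries with most *Acta1* within each sWAT genotype.

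**Figure D3:**
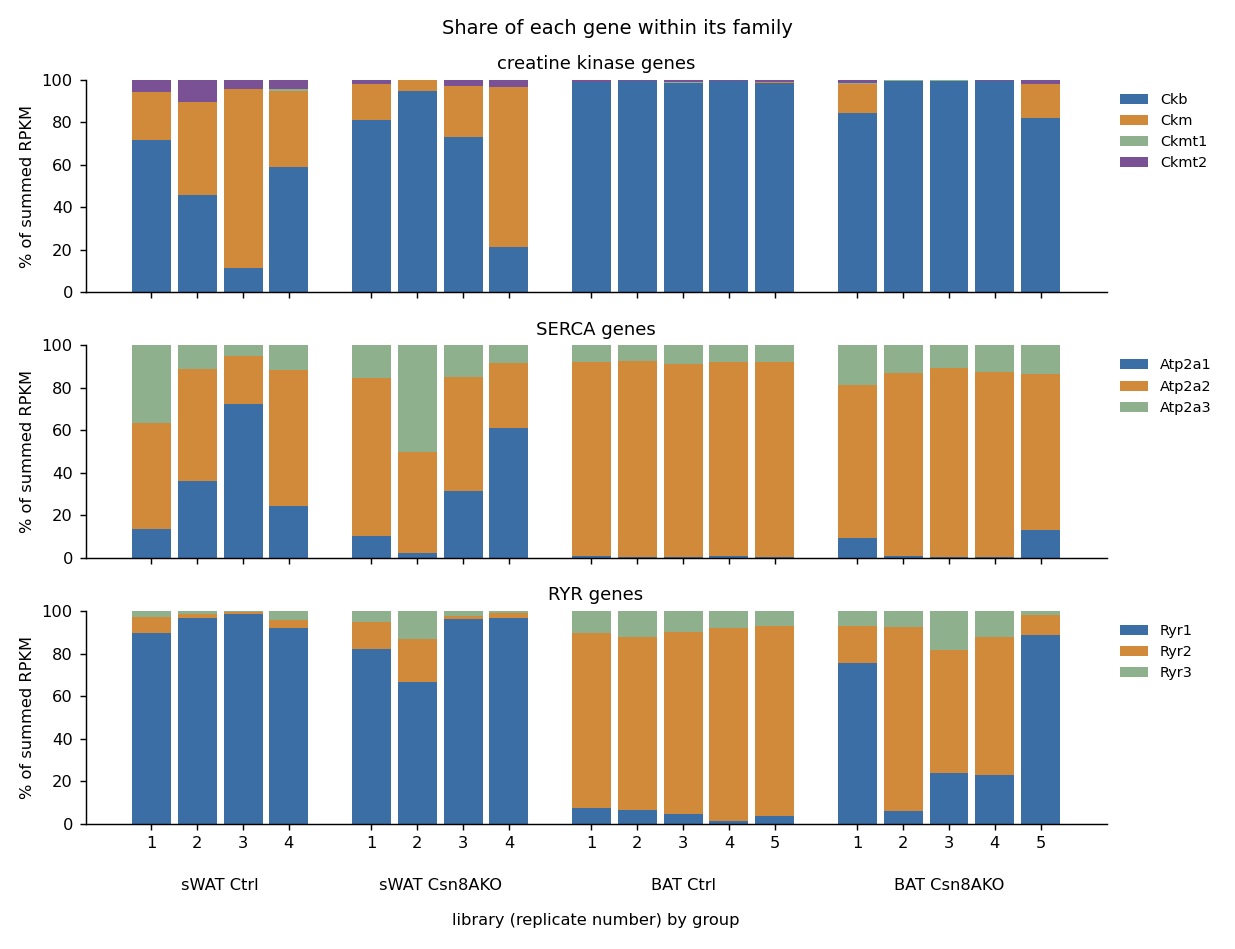
Share of each gene in the summed RPKM of its family in each library (percent, stacked bars; libraries numbered within their group). In BAT Ctrl *Ckb*, *Atp2a2* and *Ryr2* make up most of their families, while in sWAT *Ckm*, *Atp2a1* and *Ryr1* take large shares that differ between libraries.

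*Alpl*, the phosphatase of the cycle, was the other member called by genotype in BAT. It was at 15.3, 16.9, 17.8, 16.6 and 20.5 CPM in Ctrl and at 30.4, 14.5, 29.6, 36.6 and 26.4 CPM in Csn8AKO. Of the Csn8AKO libraries, 4 were above all Ctrl libraries and replicate 2 was below them. The log2 fold change was 0.69 (SE 0.19, adjusted p = 0.0145), a level 1.61-fold higher. It was 0.84 (adjusted p = 4.79e-05) without that library, 0.67 (adjusted p = 0.0516) with no filter on low counts, and 0.65 (adjusted p = 0.0732) without the muscle-rich libraries, so that the call is lost under the last pair of settings. The Csn8AKO replicate 2 of BAT also had the largest share of reads on ribosomal RNA genes among the BAT libraries. It was 15.1% there, against 0.861 to 10.1% in the others. That library had the lowest summed macrophage (299 CPM), fibroblast (3487 CPM) and heart and smooth muscle (106 CPM) markers of its group. Its macrophage and fibroblast sums were still above every Ctrl library. Its adipocyte marker sum (18246 CPM) was the highest of its group. The part of these traits in the *Alpl* values was not tested.

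In sWAT *Alpl* was at 2.94, 3.52, 3.51 and 3.91 CPM in Ctrl and at 2.38, 1.91, 2.54 and 3.76 CPM in Csn8AKO (log2 fold change -0.38, SE 0.25, adjusted p = 0.457). The difference in genotype effect between depots was 1.06 (SE 0.30), with an adjusted p of 0.0760 that passed with DESeq2 (1.08, adjusted p = 0.0246) and without BAT Csn8AKO replicate 2 (1.21, adjusted p = 0.00704). In Ctrl mice *Alpl* was 4.76-fold higher in BAT than in sWAT (log2 fold change 2.25, SE 0.22, adjusted p = 5.88e-08). *Phospho1*, another phosphatase, known from bone mineral and phosphocholine, had the same order between depots, at 0.166 to 1.27 CPM in sWAT Ctrl and 8.94 to 14.7 CPM in BAT Ctrl (4.44, SE 0.49, adjusted p = 4.59e-07).

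The bases just upstream of the start of 4 members are shown because *Gatm* and *Alpl* were called by genotype, *Ckb* carries most creatine kinase RNA in BAT, and *Atp2a1* moved with muscle transcripts. They are from RefSeq, build GRCm38.p6, and each is written 5′ to 3′ on the strand of its gene. Of the 10 members, 8 had an entry in the promoter table, and *Slc6a8* and *Atp2a2* did not. Capitals mark matches, on either strand, to 6 motifs. These are the TATA box TATAAA, the CCAAT box (read as ATTGG on the other strand), the GC box GGGCGG (read as CCGCCC there), the cAMP response element TGACGTCA, the nuclear receptor sequence AGGTCA (read as TGACCT there) and the E-box CAGCTG. All 4 genes lie on the minus strand.
*Gatm*, chr2:122611304-122611527: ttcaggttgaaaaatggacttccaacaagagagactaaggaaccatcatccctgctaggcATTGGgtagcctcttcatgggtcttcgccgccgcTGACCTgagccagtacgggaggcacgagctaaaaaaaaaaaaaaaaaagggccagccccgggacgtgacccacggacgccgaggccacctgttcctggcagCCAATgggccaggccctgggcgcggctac
*Alpl*, chr4:137796385-137796634: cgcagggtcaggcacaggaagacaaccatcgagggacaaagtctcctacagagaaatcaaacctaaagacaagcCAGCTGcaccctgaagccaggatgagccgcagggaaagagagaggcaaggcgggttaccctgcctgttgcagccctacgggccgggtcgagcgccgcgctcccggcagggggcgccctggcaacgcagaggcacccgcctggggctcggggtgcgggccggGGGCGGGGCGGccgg
*Ckb*, chr12:111672339-111672588: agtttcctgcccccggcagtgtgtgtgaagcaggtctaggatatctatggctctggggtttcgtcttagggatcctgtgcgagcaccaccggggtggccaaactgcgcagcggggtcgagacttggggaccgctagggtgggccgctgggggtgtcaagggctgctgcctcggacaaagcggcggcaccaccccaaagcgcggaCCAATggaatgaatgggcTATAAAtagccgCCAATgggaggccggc
*Atp2a1*, chr7:126463109-126463323: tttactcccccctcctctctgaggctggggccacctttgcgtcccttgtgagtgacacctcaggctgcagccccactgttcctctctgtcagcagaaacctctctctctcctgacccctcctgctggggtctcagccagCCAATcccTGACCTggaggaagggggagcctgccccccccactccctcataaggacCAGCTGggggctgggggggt

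The *Gatm* stretch held CCAAT 55 bases before the RefSeq start, ATTGG at 190 bases and TGACCT at 156 bases. The *Alpl* stretch held GGGCGG at 15 and at 10 bases, which overlap each other, and CAGCTG at 176 bases. The *Ckb* stretch held TATAAA at 28 bases between CCAAT at 46 and 16 bases, and the *Atp2a1* stretch held CAGCTG at 55 bases, TGACCT at 103 and CCAAT at 111. Among the 250 bases upstream of 32851 RefSeq starts, 12.4% held TATAAA, 33.8% CCAAT, 32.7% GGGCGG, 14.0% AGGTCA and 13.0% CAGCTG in either orientation. TGACGTCA was in 1.55% of them and in none of the 8 member windows. These are matches of letters only. The windows of *Gatm* and *Atp2a1* were cut to 224 and 215 bases, where the annotated gene begins upstream of the RefSeq start.

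*Atp2a2*, which encodes SERCA2, the pump of the calcium cycle in fat, had the highest RPKM of all members in BAT, at 58.6 ± 10.6 (SD, n = 5) in Ctrl. *Ckb* was next in BAT Ctrl at 27.9 ± 7.26 RPKM, then *Slc6a8* at 9.00 ± 2.00, and the ranges of these 3 did not overlap. *Alpl* (4.32 ± 0.487) and *Gamt* (3.34 ± 0.279) followed and overlapped each other at the edge of their ranges. *Gatm*, *Atp2a1*, *Ryr2*, *Ckmt2* and *Ckmt1* were each below 1 RPKM. In sWAT Ctrl, *Atp2a2* was at 26.7 ± 2.92 RPKM (n = 4), within the wide range of *Atp2a1* (6.11 to 87.5 RPKM) and above the range of every other member.

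By depot, *Atp2a2* was at 137, 172, 165 and 176 CPM in sWAT Ctrl and at 282, 323, 352, 370 and 455 CPM in BAT Ctrl. The groups did not overlap, and the level in BAT was 2.08-fold higher (log2 fold change 1.05, SE 0.16, adjusted p = 1.96e-05). By genotype it was at 231, 302, 423, 388 and 365 CPM in BAT Csn8AKO (-0.04, SE 0.16, adjusted p = 0.889) and at 162, 143, 147 and 158 CPM in sWAT Csn8AKO (-0.07, SE 0.13, adjusted p = 0.822). The SE of both values is small beside the depot difference. *Atp2a2* made up 90.6 to 91.9% of the SERCA RPKM in BAT Ctrl, and 71.5 to 89.0% in BAT Csn8AKO. *Atp2a3*, the third SERCA gene, which is known mainly from cells of blood and endothelium, had 7.49 to 8.82% in BAT Ctrl and 10.7 to 18.9% in BAT Csn8AKO.

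*Atp2a1*, the SERCA pump of fast skeletal muscle, differed between libraries of one group more than any other member. In sWAT it was at 21.2, 68.3, 304 and 39.0 CPM in Ctrl and at 13.1, 3.94, 49.3 and 181 CPM in Csn8AKO. In each genotype the order of the libraries was that of *Acta1*, which was at 50.4, 152, 570 and 96.7 CPM in Ctrl and at 35.3, 23.9, 92.9 and 384 CPM in Csn8AKO. The level of *Atp2a1* per *Acta1*, as a ratio of CPM, stayed between 0.165 and 0.533 in the 8 sWAT libraries. The genotype difference in sWAT was -0.80 (SE 1.29, adjusted p = 0.795), and it was 0.55 (adjusted p = 0.896) without Ctrl replicate 3.

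In BAT *Atp2a1* was at 1.96, 1.29, 1.23, 1.71 and 1.37 CPM in Ctrl and at 17.7, 1.92, 0.866, 1.52 and 37.0 CPM in Csn8AKO. The muscle-rich replicates 1 and 5 carried the difference, and the other 3 Csn8AKO libraries lay between 0.866 and 1.92 CPM, below or within the range of Ctrl. The log2 fold change was 3.00 (SE 1.07, adjusted p = 0.0643) with all libraries and -0.05 (adjusted p = 0.923) without these 2. It passed the threshold under 6 alternatives, among them DESeq2 (2.99, adjusted p = 0.00595) and the fit with the muscle marker sum as a covariate (1.09, adjusted p = 0.00653). The ratio of *Atp2a1* to *Acta1* was 0.632 and 0.678 in the muscle-rich BAT libraries, near that in sWAT, and 1.60 to 7.20 in the other 8. *Atp2a1* thus had reads in BAT libraries in which *Acta1* was nearly absent, 71 to 88 reads in each Ctrl library. Within its exons, 763 bases overlap exons of *Rabep2* on the opposite strand. Only unambiguous reads were counted, and no strand setting of the counting is given in the sources used here. If strand was ignored, reads on these bases were left out for both genes.

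**Figure D4:**
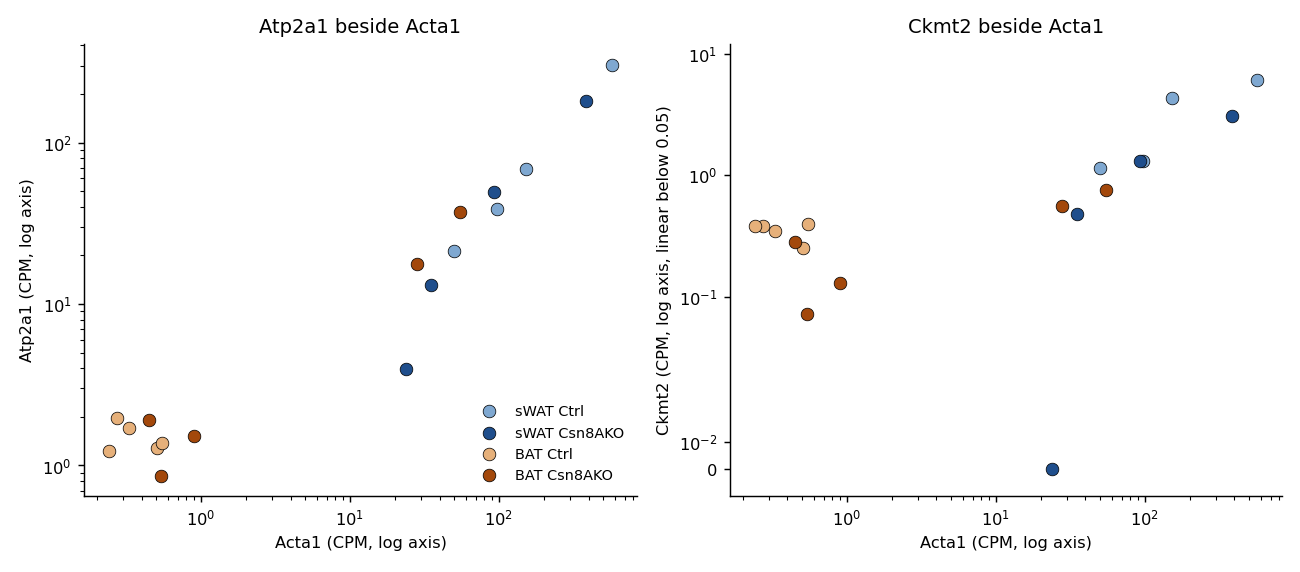
*Atp2a1* (left) and *Ckmt2* (right) against *Acta1* in each of the 18 libraries (CPM, log axes; the *Ckmt2* axis is linear below 0.05). The sWAT libraries and BAT Csn8AKO replicates 1 and 5 lie along 1 band for *Atp2a1*, with *Acta1* above 20 CPM, and the other 8 BAT libraries lie together with *Acta1* below 1 CPM.

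The depot difference of *Atp2a1* was the largest of all members, a log2 fold change of -6.24 in BAT against sWAT in Ctrl (SE 1.37, adjusted p = 0.00141). It was -4.90 (adjusted p = 5.32e-05) without the muscle-rich libraries and -0.999 (adjusted p = 0.0186) with the muscle marker sum as a covariate. Both of these fits have the limit given for *Ckmt2*.

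*Ryr2*, the cardiac-type ryanodine receptor through which calcium leaves the endoplasmic reticulum, took 81.5 to 90.8% of the RYR RPKM in BAT Ctrl, where *Ryr1* of skeletal muscle took 1.26 to 7.14%. In BAT Csn8AKO *Ryr2* took 9.56 to 86.3%, and *Ryr1* took 75.3 and 88.6% in the muscle-rich replicates 1 and 5. In sWAT Ctrl the order was turned, with *Ryr1* at 89.8 to 98.4% and *Ryr2* at 0.934 to 7.43%. *Ryr2* was at 1.70, 0.928, 1.56 and 1.17 CPM in sWAT Ctrl and at 3.33, 4.06, 6.89, 16.6 and 14.3 CPM in BAT Ctrl (log2 fold change 2.67, SE 0.56, adjusted p = 6.50e-04). The groups did not overlap, although the BAT Ctrl libraries differed among themselves by more than those of *Atp2a2*. In BAT Csn8AKO *Ryr2* was at 2.71, 9.10, 4.15, 3.85 and 2.67 CPM, with a log2 fold change of -1.005 (SE 0.54, adjusted p = 0.191). The value was -0.66 (adjusted p = 0.381) without Ctrl replicate 4 and -0.67 (adjusted p = 0.525) without the muscle-rich libraries, and single libraries left out gave -1.42 to -0.66, none called. In sWAT Csn8AKO it was at 1.72, 2.27, 0.521 and 3.00 CPM (0.51, SE 0.47, adjusted p = 0.604), from 8 to 57 reads. Over the long counted length of the gene these levels are low, at 0.314 ± 0.211 RPKM (SD, n = 5) in BAT Ctrl.

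The muscle isoforms beside the members were highest in the muscle-rich libraries of each tissue. *Ckm* was at 9.11 to 243 CPM in sWAT Ctrl and at 0.0273 to 0.228 CPM in BAT Ctrl, and had 8.59 and 13.7 CPM in the muscle-rich BAT libraries. *Ryr1* was called higher in BAT Csn8AKO (log2 fold change 4.52, SE 1.11, adjusted p = 0.0141). It was at 0.218, 0.237, 0.278, 0.175 and 0.419 CPM in Ctrl and at 8.78, 0.490, 1.30, 1.02 and 18.8 CPM in Csn8AKO. The groups did not overlap, and the gene was still called without the muscle-rich libraries (1.83, adjusted p = 0.00479). There *Acta1* was at 0.449, 0.541 and 0.900 CPM in Csn8AKO and was not called (0.78, adjusted p = 0.171). Of the 9 skeletal muscle markers tested in that fit, 1 was called higher, *Tnnt3* (1.65, adjusted p = 0.0417). Another 1 was called lower, *Myl1* (-1.85, adjusted p = 1.06e-05), and the median over the 9 was 0.41. That fit called 2560 genes higher and 2743 lower of 23109. The part of muscle RNA in the *Ryr1* difference was not tested. *Ryr1* per *Acta1*, as a ratio of CPM, ran from 0.464 to 2.40 in the 8 BAT libraries that are not muscle-rich, and from 0.214 to 0.309 in sWAT. *Sln*, which encodes the SERCA regulator sarcolipin, was at or below 0.245 CPM in all 18 libraries and was not tested. *Pln*, which encodes phospholamban, was at 1.28 to 1.72 CPM in BAT Ctrl and 0.980 to 1.87 CPM in BAT Csn8AKO (0.21, SE 0.20, adjusted p = 0.462). Of the 10 listed SERCA regulators 7 were found by symbol and 4 tested in BAT, of which 0 were called by edgeR or DESeq2, with 1 at an unadjusted p under 0.05.

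*Ucp1*, the uncoupling protein that these cycles stand beside, was at 1654 to 4688 CPM in BAT Ctrl and at 2496 to 5430 CPM in BAT Csn8AKO (log2 fold change 0.53, SE 0.27, adjusted p = 0.167). In sWAT it was below 7 CPM in every library and was not tested by genotype. Of 12 genes of UCP1-linked heat production, 2 were higher and 3 lower in Csn8AKO BAT, beside 16.0% and 15.8% of all genes called in these directions. DESeq2 called 2 and 5 of the 12, beside 4038 and 3929 of 22345 genes. Without Csn8AKO replicate 2 the counts were 2 and 6, beside 4040 and 4106 of 22826 genes. *Elovl3*, a fatty acid elongase of brown fat, rose by 3.34 on the log2 scale (SE 0.48, adjusted p = 8.19e-04), and *Cox7a1*, a subunit of cytochrome c oxidase, fell by 0.79 (SE 0.17, adjusted p = 0.00273). In sWAT, 0 of 11 rose (1 at an unadjusted p under 0.05, 0 with DESeq2) and 3 fell (6 with DESeq2), *Cidea* (-7.52, SE 0.51, adjusted p = 2.27e-04), *Prdm16* (-1.37, SE 0.23, adjusted p = 0.00903) and *Cox8b* (-1.92, SE 0.37, adjusted p = 0.0205). Of all genes 3.00% were called lower in sWAT by edgeR, and DESeq2 called 1034 of 18843 lower. In the same libraries 4 of 10 adipocyte markers were called lower and 6 of 10 macrophage markers higher, and their part in these differences was not tested.

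Other genes of the creatine pathway were few. *Slc16a12*, a creatine transporter of the monocarboxylate family, rose in BAT from 0.273 to 0.677 CPM in Ctrl to 0.611 to 2.36 CPM in Csn8AKO, with overlap of the groups (log2 fold change 1.53, SE 0.36, adjusted p = 0.00510). Of the 12 tested genes that supply or use arginine, glycine or the methyl donor S-adenosylmethionine, 2 rose and 3 fell in Csn8AKO BAT, beside 16.0% and 15.8% of all genes. *Arg1*, an arginase, was at 0.682 to 1.06 CPM in Ctrl and 1.25 to 2.12 CPM in Csn8AKO (0.86, SE 0.22, adjusted p = 0.00759). *Gnmt*, the glycine methyltransferase that also uses S-adenosylmethionine, fell by 0.87 (SE 0.22, adjusted p = 0.00833), and *Shmt1*, a serine and glycine interconverting enzyme, fell by 0.57 (SE 0.09, adjusted p = 3.37e-04). Of 10 tested genes of nucleotide and phosphate exchange with mitochondria, 0 rose in Csn8AKO BAT, also with DESeq2 or an unadjusted p under 0.05, and 1 fell, the adenylate kinase *Ak3* (-0.61, SE 0.11, adjusted p = 7.99e-04). With DESeq2 2 of them fell. Between depots in Ctrl mice, 8 of these 10 were higher in BAT and 0 lower, beside 25.9% and 25.7% of all 22509 genes. The median log2 fold change over the 10 was 0.96 against 0.03 over all genes.

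The other calcium pumps and exchangers, which move calcium across membranes, were mostly higher in Csn8AKO BAT. Of the 8 tested, 5 rose and 0 fell, where 16.0% and 15.8% of all genes were called. Their median log2 fold change was 0.59 against 0.01 over all genes. DESeq2 called 6 and 0 of them, beside 4038 and 3929 of 22345 genes. At an unadjusted p under 0.05 there were 6 and 0, beside 4702 and 4619 of 22345 genes. *Atp2a3* was at 20.9, 22.9, 29.7, 27.5 and 33.7 CPM in Ctrl and at 52.8, 39.6, 44.3, 48.5 and 58.7 CPM in Csn8AKO (0.88, SE 0.14, adjusted p = 2.69e-04). The sodium-calcium exchanger *Slc8a1* (0.77, SE 0.15, adjusted p = 0.00133) and the plasma membrane pump *Atp2b2* (1.13, SE 0.26, adjusted p = 0.00396) did not overlap between groups either, and *Atp2b1* (0.25, SE 0.08, adjusted p = 0.0305) did. Without the muscle-rich libraries 3 of the 8 were called, namely *Atp2a3*, *Slc8a1* and *Atp2b2*, and the median was 0.31. That fit called 2560 of 23109 genes higher, and the fit of all BAT libraries 3585 of 22345. The macrophage and fibroblast markers given above were higher in the same libraries, and their part in these differences was not tested. In sWAT 1 of 8 rose, *Slc8a1* (0.63, SE 0.16, adjusted p = 0.0495), and 1 fell, where 2.30% of all genes were called higher and 3.00% lower. The 1 that fell was the plasma membrane pump *Atp2b4*. It was at 232, 317, 321 and 307 CPM in Ctrl and at 143, 90.1, 141 and 161 CPM in Csn8AKO (-1.12, SE 0.19, adjusted p = 0.00930). The effect of genotype on *Atp2b4* differed between the depots (1.58, SE 0.28, adjusted p = 0.00419).

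Release channels and their partners changed in both directions in Csn8AKO BAT, 3 of 12 higher and 3 lower, beside 16.0% and 15.8% of all genes. In the same libraries 4 of 6 tested heart and smooth muscle markers, 4 of 5 glial and neuronal markers, 9 of 9 fibroblast markers and 9 of 10 macrophage markers were called higher, and their part in the differences of calcium genes was not tested. *Itpr2*, an IP3 receptor, fell from 751, 765, 638, 850 and 587 CPM in Ctrl to 410, 370, 279, 318 and 292 CPM in Csn8AKO (log2 fold change -1.08, SE 0.13, adjusted p = 4.49e-05). Its level was far above that of *Ryr2*, at 48.5 ± 7.12 RPKM (SD, n = 5) in BAT Ctrl. *Jph1*, a junctophilin that ties the endoplasmic reticulum to the plasma membrane, fell by 1.01 (SE 0.17, adjusted p = 3.91e-04), while *Jph2* rose by 0.99 (SE 0.24, adjusted p = 0.00606) and *Itpr3* by 0.53 (SE 0.13, adjusted p = 0.00847). The third to rise was *Ryr1*, given above. Without the muscle-rich libraries 2 of 12 were higher and 3 lower, beside 2560 and 2743 of 23109 genes. In sWAT 0 of 12 rose (1 at an unadjusted p under 0.05, 0 with DESeq2) and 1 fell, *Asph*, whose products include the junctional protein junctin (-0.997, SE 0.20, adjusted p = 0.0200). Of all genes 2.30% were called higher and 3.00% lower in sWAT.

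Of the 12 tested genes of calcium entry across the plasma membrane or into mitochondria, 3 rose and 4 fell in Csn8AKO BAT, beside 16.0% and 15.8% of all genes and in the libraries with higher fibroblast, macrophage and smooth muscle markers. *Orai3*, a store-operated channel, was at 37.9, 43.7, 42.1, 37.6 and 56.1 CPM in Ctrl and at 25.5, 26.5, 25.2, 23.7 and 25.9 CPM in Csn8AKO (-0.75, SE 0.11, adjusted p = 1.17e-04). Its genotype effect differed between depots (-0.82, SE 0.17, adjusted p = 0.0121). *Mcub*, which encodes an inhibitory subunit of the mitochondrial calcium uniporter, rose by 1.51 (SE 0.30, adjusted p = 0.00162), from 0.491 to 0.845 CPM in Ctrl to 0.776 to 3.05 CPM in Csn8AKO. *Micu3* (-0.57, SE 0.12, adjusted p = 0.00232), a regulator of the uniporter, was lower, and *Orai2* (0.98, SE 0.25, adjusted p = 0.00760) was higher. Without the muscle-rich libraries 2 of the 12 were higher and 2 lower, beside 2560 and 2743 of 23109 genes. Of 7 calcium-binding proteins of the endoplasmic reticulum, 0 rose (0 with DESeq2) and 1 fell in BAT, sarcalumenin (*Srl*, -0.91, SE 0.22, adjusted p = 0.00795). With an unadjusted p under 0.05, 4 of the 7 were higher, beside 4702 of all 22345 genes. In sWAT 0 of 13 calcium entry genes and 0 of 6 calcium-binding genes were called by edgeR, with 1 and 0 at an unadjusted p under 0.05, and DESeq2 called 1 and 0. Of all genes in sWAT, edgeR called 2.30% higher and 3.00% lower, and DESeq2 912 and 1034 of 18843.

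**Figure D5:**
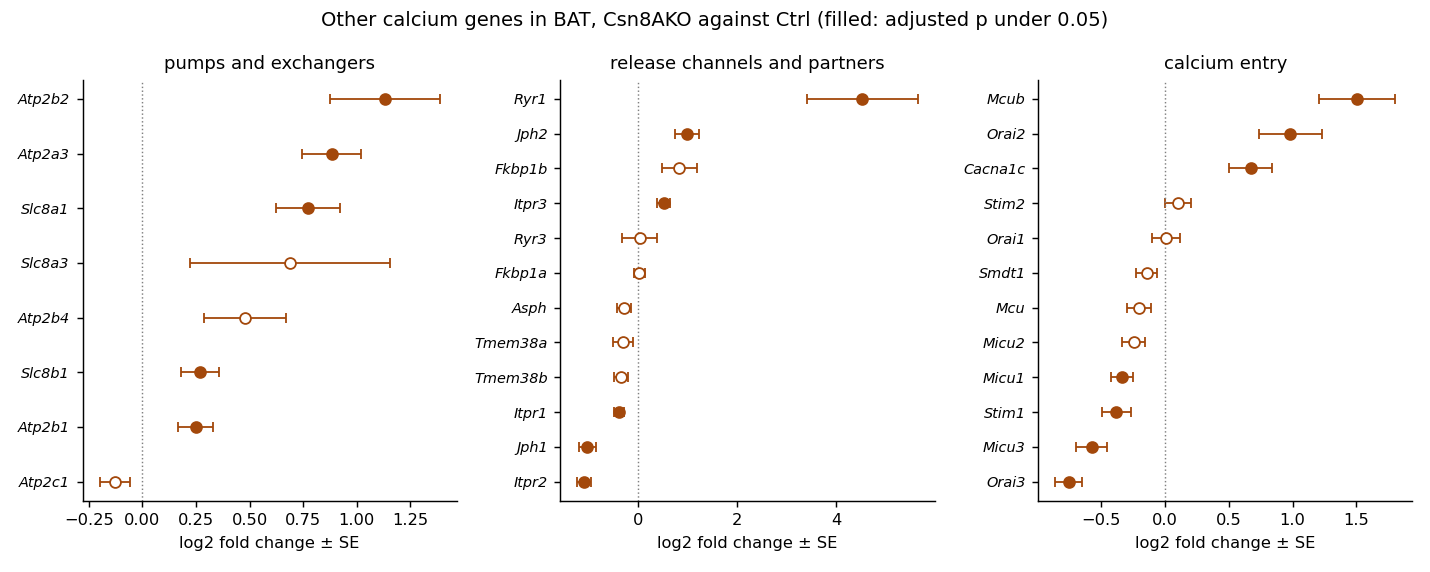
Log2 fold changes with SE, Csn8AKO against Ctrl in BAT, of the tested genes of 3 lists; filled points have an adjusted p under 0.05. Of the pumps and exchangers 5 of 8 are filled to the right, the release channels are split 3 to 3, and of the entry genes 3 are filled to the right and 4 to the left.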

How the data were processed

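The members and gene lists were chosen with earlier results of these data known. RNA depleted of ribosomal RNA was sequenced by the authors from 18 mice, 1 library each, aligned to the Ensembl release 101 assembly (GRCm38) with STAR and counted with featureCounts as uniquely aligned, unambiguous reads. The strand setting is not given in the sources used here. The authors deposited raw counts per gene, with CPM, FPKM and TPM computed from them; the deposited CPM, FPKM and TPM values were checked against the counts and not used. Symbols were matched through the GENCODE M21 annotation.

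Counts were tested with edgeR 4.0.16 in R 4.3.3 (TMM factors, robust quasi-likelihood fit, two-sided, Benjamini-Hochberg adjustment over all genes tested, calls at 0.05). Genes were kept by filterByExpr, set to 10 reads in a library and 15 in all; *Ckmt1* failed. Genotypes were compared within each tissue, and depots and the interaction in one fit of all 18 libraries. The SE is the log2 fold change over the square root of F. The text names all members, at most 4 called genes of smallest adjusted p per list and comparison, *Ucp1*, *Sln*, *Pln*, *Ckm*, *Ryr1*, *Acta1*, *Cops8* and genes overlapping a member. The fit was tested on simulated data. Alternatives were RLE factors, library size alone, no or a stricter filter, DESeq2 1.42.0, limma 3.58.1 voom, a muscle marker covariate, a replicate block, one fit of all groups and each library left out. Fits without muscle-rich libraries and DESeq2 counts of the lists were added after the data were seen. P-values set the difference between groups against the spread between mice. For the depot and interaction tests that spread was estimated over all 18 libraries, so over both tissues and ages.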

Additional observations from a re-analysis of the deposited data

Results flagged for a closer look

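Among the 40 groups of 4 or 5 libraries in which a member was compared with its own group, 7 held a library far from the others, where chance gives about 1 in 20. *Atp2a1* was at 304 CPM in sWAT Ctrl replicate 3, the library with most *Acta1* (570 CPM) of the series. *Gamt* was at 23.8 CPM in sWAT Ctrl replicate 2, against 9.52 to 11.8 CPM in the other Ctrl libraries. In BAT, Csn8AKO replicate 2 was the highest of its group for *Ckb* (163 CPM) and for *Ryr2* (9.10 CPM), and it was also the lowest of its group for *Alpl* and *Gatm*. *Slc6a8* was at 67.8 CPM in BAT Csn8AKO replicate 4. *Ckmt1* was at 0.293 CPM in sWAT Ctrl replicate 4 and at 0.139 CPM in sWAT Csn8AKO replicate 4, from 6 and 2 reads where the other libraries of these groups had 0.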

How the results depend on the processing

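Of the recomputed counts of called members, 173 stayed within 1.5 times their value and 11 did not. Of the recomputed values of single members, 774 kept their direction and side of the threshold, 15 newly passed it, 4 no longer passed and 34 changed sign, none of the last being called. The number called higher in sWAT Csn8AKO was 1 in place of 0 (*Gatm*) with DESeq2, limma voom, the muscle covariate or one fit of all groups, and 0 to 1 with single libraries left out (1 without Csn8AKO replicate 2). In BAT it was 1 in place of 2 with no filter on low counts and without the muscle-rich libraries, where *Alpl* was lost. The interaction called 1 in place of 0 (*Alpl*) by library size alone and with DESeq2, and 0 to 1 with single libraries left out (1 without sWAT Csn8AKO replicate 4 or BAT Csn8AKO replicate 2).

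Same-numbered libraries of both genotypes showed no strong shared deviation, with correlations from -0.38 to 0.22. BAT replicates 1 and 5 of Ctrl correlated best with the Csn8AKO library of their own number. Such correlations do not show how the numbers were assigned, so that whether they pair the mice is not known. With the replicate block 2 members were called higher in BAT and 0 in sWAT, and *Gatm* in BAT was at 1.28 (adjusted p = 4.84e-04). Sign changes in BAT under the block were *Ckb* (-0.044) and *Ckmt2* (-0.20).

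The other log2 fold changes in BAT that changed sign were *Atp2a2* (0.093 by library size, 0.040 with voom, 0.076 without muscle-rich libraries, -0.12 to 0.081 with single libraries left out), *Gamt* (-0.052 with voom, -0.084 without muscle-rich libraries, -0.12 to 0.13), *Ckb* (-0.20 with voom, -0.36 to 0.21), *Ckmt2* (-0.68 with voom, -0.58 with the muscle covariate, -1.16 without muscle-rich libraries, -0.34 to 0.33) and *Atp2a1* (-0.051 without muscle-rich libraries). In sWAT they were *Ryr2* (-0.11 with voom), *Atp2a1* (-2.31 to 0.55) and *Ckb* (-0.058 to 0.46), and in the interaction *Ckb* (0.00404 by library size, 0.00366 without muscle-rich libraries, -0.64 to 0.099) and *Atp2a2* (-0.058 to 0.14). By depot, *Ckmt2* (-0.026) and *Ckb* (1.11) lost their calls with the muscle covariate. The cause of these changes was not tested. The low read counts of *Ckmt1* and *Ckmt2* limit what could be detected.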

Other observations

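Beyond the members, calcium and energy genes differed between the depots of Ctrl mice, with the difference in age noted for the members. Of the 8 other pumps and exchangers tested, 7 were lower in BAT than in sWAT and 0 higher (also 0 with DESeq2 or an unadjusted p under 0.05), opposite to *Atp2a2*, where 25.7% of all genes were called lower. Between the same libraries 10 of 10 macrophage markers (median log2 fold change -3.17), 9 of 9 fibroblast markers (-2.92) and 9 of 10 lymphocyte markers (-4.29) were lower in BAT, and their part in these differences was not tested. *Atp2b4*, a plasma membrane calcium pump, was at 294 ± 42.0 CPM (SD, n = 4) in sWAT and at 34.2 ± 5.47 CPM (SD, n = 5) in BAT (log2 fold change -3.19, SE 0.21, adjusted p = 2.37e-10). The IP3 receptors *Itpr2* (2.53, SE 0.24, adjusted p = 4.44e-08) and *Itpr1* (1.89, SE 0.15, adjusted p = 2.28e-09) were higher in BAT. *Mcub*, which encodes an inhibitory subunit of the mitochondrial uniporter, was lower in BAT (-3.14, SE 0.32, adjusted p = 8.39e-08), whereas the pore subunit gene *Mcu* (0.72, SE 0.12, adjusted p = 3.14e-05) was higher. The voltage-dependent anion channels of the outer mitochondrial membrane, *Vdac1* (1.28, SE 0.15, adjusted p = 7.91e-07) and *Vdac2* (1.41, SE 0.15, adjusted p = 1.34e-07), and the adenine nucleotide carrier *Slc25a4* (1.16, SE 0.17, adjusted p = 8.37e-06) were higher in BAT.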
